A study of Mus musculus with 12 samples.

Results

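The insulin-like growth factor (IGF) axis was described here through 10 genes: the ligands *Igf1* and *Igf2*, the receptors *Igf1r* and *Igf2r*, and the binding proteins *Igfbp2*, *Igfbp3*, *Igfbp4*, *Igfbp5*, *Igfbp6* and *Igfbp7*. They were taken by symbol from the 45792 genes listed for each library. RNA-seq had been run on 12 cultures of neural stem cells (NSCs), the self-renewing progenitors of the brain, prepared from the forebrain of mouse pups 1 to 2 days old and grown to the second passage. The cultures were 4 of wild-type (WT) NSCs, 4 of *Ncf1*-/- NSCs given vehicle and 4 of *Ncf1*-/- NSCs given recombinant mouse Igfbp2 protein. *Ncf1* encodes an organizing subunit of the Nox2 NADPH oxidase, which makes reactive oxygen species, and the *Ncf1*-/- mice had been backcrossed to C57BL/6J. Igfbp2 was added 48 hours after plating and RNA was taken 48 hours later. The sample labels give 100 ng/ml, whereas the methods of the study state a lower concentration. Every culture was grown without serum in medium with EGF, FGF, insulin, transferrin, selenite and B-27, so that insulin was present in all 3 groups. Per the methods, each culture came from the brain of 1 pup, and the vehicle- and Igfbp2-treated cultures were paired from the same 4 *Ncf1*-/- pups.

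IGF-1 and IGF-2 signal through the tyrosine kinase Igf1r, whereas Igf2r, the cation-independent mannose-6-phosphate receptor, takes IGF-2 into the cell for degradation. In the fluid around cells most IGF is held by binding proteins, which keep it from the receptor, carry it or release it when proteases cut them. In the developing brain the IGFs promote growth and survival of progenitors, and Igfbp2 is a major binding protein of brain tissue and cerebrospinal fluid.

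Levels are given as CPM (counts scaled to a fixed library total) adjusted by TMM factors, which set the bulk of genes level between libraries, and a gene was called changed at an edgeR quasi-likelihood p-value under 0.05 after Benjamini-Hochberg adjustment over the 15706 genes tested. Totals ran from 18201622 to 34086554 estimated counts per library, with a median of 20932987. *Ncf1* had between 1 and 7 counts in each of the 12 libraries, WT included, too few to check the genotype. The sum of 4 Y-linked genes was 105 to 116 CPM in vehicle-treated *Ncf1*-/- libraries and 7.80 to 9.18 CPM in those given Igfbp2, and it was 107 to 118 CPM in WT replicates 1 to 3 and 6.46 CPM in WT replicate 4. *Xist*, the RNA of the inactive X chromosome, was at 72.3 to 87.8 CPM in vehicle-treated and 166 to 275 CPM in treated libraries, at 3.87 to 5.22 CPM in WT replicates 1 to 3 and at 291 CPM in WT replicate 4. The vehicle-treated libraries thus held Y-linked RNA and *Xist* together, unlike the WT libraries, which goes against 1 pup per culture. The treatment and the sex-linked expression therefore cannot be told apart, and this goes against the statement of the methods that treated and untreated cultures came from the same animals. A second sample sheet of the study places WT replicate 4 among apocynin-treated cultures, whereas its label is WT. Without that library 7 members were called between vehicle-treated *Ncf1*-/- and WT NSCs, in libraries with like Y-linked levels but unlike *Xist*. The neural stem markers (8 genes, all tested) summed to 8340 to 8960 CPM in vehicle-treated and 8400 to 9130 CPM in Igfbp2-treated *Ncf1*-/- libraries and to 3170 to 8880 CPM in WT libraries. The microglia list of 8 genes, 1 of them tested, summed to 0.445 to 1.08 CPM in WT libraries. It summed to 0.597 to 1.45 CPM in vehicle-treated and 0.574 to 0.997 CPM in Igfbp2-treated libraries. Of this list, 2 genes (*C1qa* and *C1qb*) had no counts in any library.

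Between the genotypes, 4 of the 10 genes were higher in *Ncf1*-/- NSCs given vehicle than in WT (*Igf1*, *Igfbp2*, *Igfbp3* and *Igfbp4*) and 3 were lower (*Igf1r*, *Igfbp5* and *Igfbp7*). *Igf2* and *Igf2r* were tested and not called, and *Igfbp6* had too few counts to be tested. Of all genes tested, 57.2% were called in this comparison, 28.9% higher and 28.2% lower, and the 7 of 9 members stand beside that rate. The fold changes of the family were wide, from −1.05 to 3.45 on the log2 scale, and their median of 0.16 stood beside 0.02 for all genes. The 2 groups did not overlap for 5 members, against 51.2% of all genes tested.

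With Igfbp2 treatment, 5 of the 9 genes tested rose in *Ncf1*-/- NSCs (*Igf1r*, *Igf2r*, *Igfbp3*, *Igfbp5* and *Igfbp7*) and none fell, where 25.0% of all genes were called, 14.2% higher and 10.7% lower. The median log2 fold change was 0.93 for the 9 genes and 0.04 for all genes. In 9 members every treated library lay above every vehicle-treated library, and 34.1% of all genes did not overlap in either direction. When *Ncf1*-/- NSCs given Igfbp2 were set against WT, 5 of 9 were higher (*Igf1*, *Igf2r*, *Igfbp2*, *Igfbp3* and *Igfbp4*) and none was lower, where 62.4% of all genes were called, 31.6% higher and 30.8% lower. In that comparison 5 members did not overlap, against 54.4% of all genes. The 3 comparisons share their groups in pairs and are not independent of each other.

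**Figure D1:**
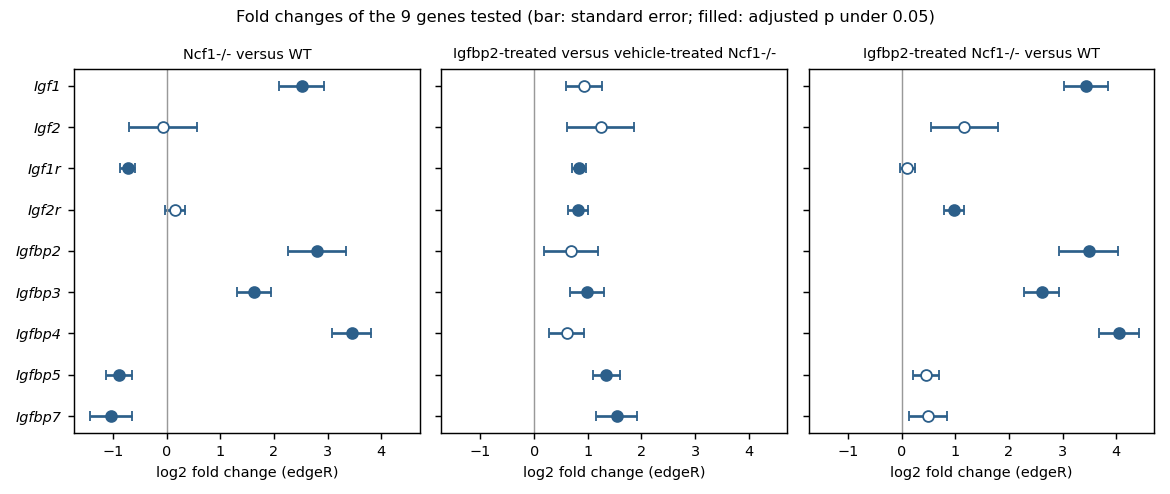
Log2 fold change (x axis, edgeR) of the 9 IGF-axis genes tested (y axis) in the 3 comparisons, with bars for the standard error and filled points for an adjusted p-value under 0.05. Between the genotypes the genes spread from −1.05 to 3.45, whereas all 9 lie above 0 with Igfbp2 treatment.

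The ligand genes were at the edge of detection. *Igf1* (chr10:87858265-87937042, GRCm38, plus strand) had 3, 2, 16 and 2 counts in the 4 WT libraries, 23, 28, 22 and 55 in the vehicle-treated and 50, 40, 63 and 43 in the Igfbp2-treated *Ncf1*-/- libraries. This is 0.14, 0.11, 0.46 and 0.11 CPM in WT, against 1.002, 1.355, 0.97 and 2.05 CPM with vehicle and 2.77, 2.40, 3.01 and 2.11 CPM with Igfbp2. On this scale the 3 groups formed 3 separate steps with no overlap between neighbours, although the lowest treated and the highest vehicle-treated library were close. Without TMM factors, vehicle-treated replicate 4 (2.31 CPM) was above treated replicate 4 (1.88 CPM). In TPM, the deposited value per transcript length, vehicle-treated replicate 3 (0.19) was below WT replicate 3 (0.21). *Igf1* was higher in *Ncf1*-/- than in WT cultures by a log2 fold change of 2.51 (SE 0.42, adjusted p = 0.000201). The treatment difference of 0.93 (SE 0.33) missed the threshold (adjusted p = 0.0572), and it passed when WT libraries were left out of the fit (0.87, adjusted p = 0.0149). Treated *Ncf1*-/- NSCs were above WT by 3.44 (SE 0.41, adjusted p = 1.2e-05).

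*Igf2* (chr7:142650766-142666816, minus strand) is an imprinted gene, known to be expressed strongly by the meninges and choroid plexus. Its WT libraries had 0.32, 0.22, 4.42 and 1.002 CPM, which is 7, 4, 154 and 18 counts. The vehicle-treated libraries had 1.31, 1.31, 1.99 and 1.53 CPM and the treated ones 3.32, 3.61, 2.73 and 4.86 CPM. WT replicate 3 thus equalled the treated libraries while the other WT libraries lay below every vehicle-treated one. The genotype difference was −0.07 (SE 0.64, adjusted p = 0.934), and without WT replicate 3 it turned to 1.57 (adjusted p = 0.00506). The treatment difference of 1.24 (SE 0.63, adjusted p = 0.164) was likewise called without that library (1.201, adjusted p = 0.011). Exons of *Igf2* overlap the antisense gene *Igf2os*, and the strand setting of the counting is not given in the sources used here, so that reads of the 2 genes may be mixed. An exon of *Igf2* also overlaps *Gm49394* on the same strand, which no strand setting would separate. Markers of other cell types were mixed. The fibroblast list of 8 genes summed to 14.6 to 27.5 CPM in WT, 13.9 to 21.9 CPM in vehicle-treated and 30.3 to 40.7 CPM in treated libraries, and 4 of its 5 tested genes rose with treatment. Of that list, *Foxc1* had means of 4.86, 11.1 and 23.2 CPM in WT, vehicle-treated and treated libraries, and *Dcn* and *Lum* at most 0.15 CPM in any library. *Pdgfrb* had means of 13.5, 0.32 and 1.31 CPM in the same order. It was called lower in vehicle-treated cultures than in WT, whereas the other 4 tested genes of the list were called higher. The choroid plexus and ependyma list of 8 genes, 2 of them tested, summed to 21.2 to 70.4 CPM in WT, 40.4 to 47.8 CPM with vehicle and 63.6 to 88.2 CPM with Igfbp2. Most of it was *Foxj1*, a gene of ciliated cells, which had 13.2, 21.2, 55.5 and 21.2 CPM in WT and rose with treatment from 34.3 ± 3.12 to 69.8 ± 10.2 CPM (SD, n = 4, adjusted p = 0.0359), whereas *Otx2* had 9.78 ± 0.212 CPM with vehicle and 8.83 ± 1.04 CPM with Igfbp2 (adjusted p = 0.64) and *Ttr* was at most 0.63 CPM in any library. The part of such cells in the values of *Igf2* was not tested. In bulk RNA a smaller number of cells of a type and less RNA per cell cannot be told apart.

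The receptor genes were well measured. *Igf1r* (chr7:67952827-68233668, plus strand), the signalling receptor, had 48.6, 56.2, 51.4 and 59.2 CPM in WT, 30.8, 30.1, 28.5 and 40.4 CPM in vehicle-treated and 44.2, 62.1, 66.7 and 59.1 CPM in treated libraries. On this scale all vehicle-treated libraries lay below all others, and the treated and WT libraries overlapped. Without TMM factors, vehicle-treated replicate 4 (45.4 CPM) was above treated replicate 1 (39.5 CPM). *Igf1r* was lower in *Ncf1*-/- than in WT NSCs by −0.73 (SE 0.14, adjusted p = 0.000487) and rose with Igfbp2 by 0.84 (SE 0.14, adjusted p = 0.00179). Treated *Ncf1*-/- and WT NSCs differed by 0.11 (SE 0.14, adjusted p = 0.506). *Igf2r* (chr17:12682406-12769664, minus strand), which clears IGF-2, had 56.3, 59.8, 87.9 and 74.6 CPM in WT, 62.5, 73.9, 66.9 and 108 CPM with vehicle and 110, 144, 156 and 135 CPM with Igfbp2. On this scale the treated libraries stood above all 8 others, by little over vehicle-treated replicate 4, and WT and vehicle-treated libraries overlapped. Without TMM factors, *Igf2r* in vehicle-treated replicate 4 (121 CPM) was above treated replicate 1 (98.8 CPM). The genotype difference was 0.16 (SE 0.18, adjusted p = 0.481), whereas *Igf2r* rose with treatment by 0.81 (SE 0.18, adjusted p = 0.00846) and was above WT by 0.97 (SE 0.19, adjusted p = 0.000534). Per length, *Igf2r* was 0.54 to 0.85 times *Igf1r* in the WT libraries and 1.05 to 1.32 times in the 8 *Ncf1*-/- libraries.

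**Figure D2:**
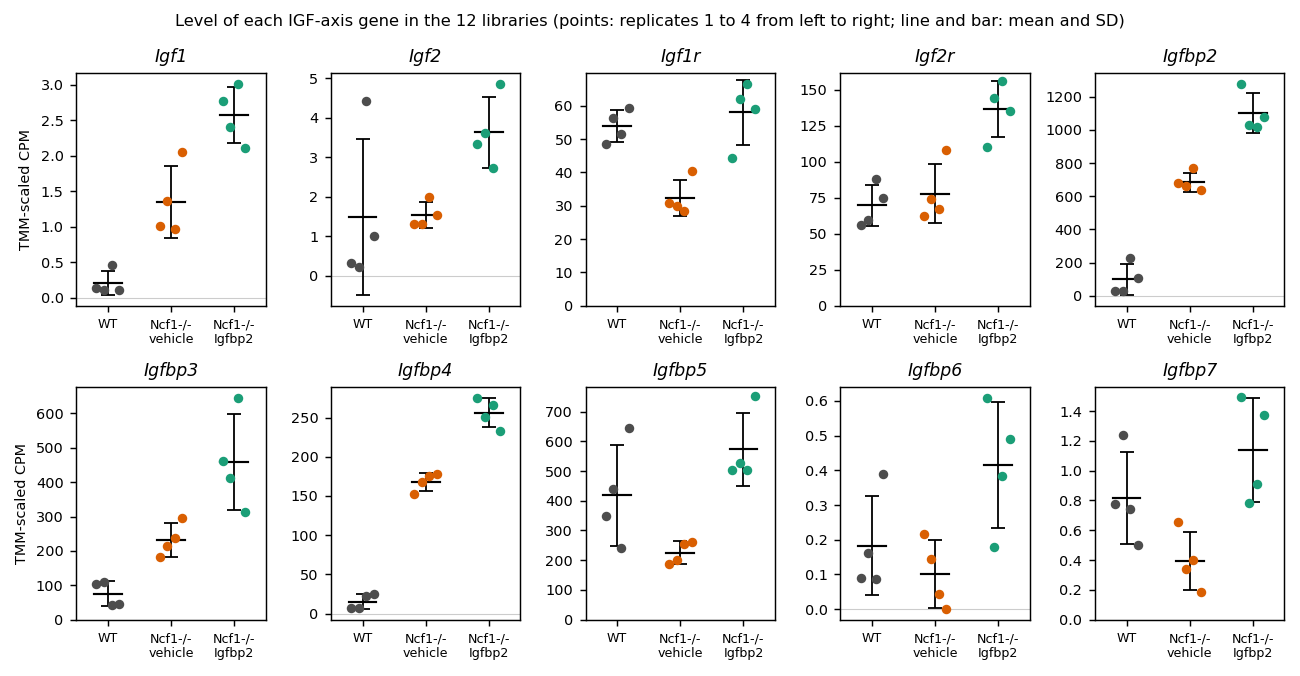
TMM-scaled CPM (y axes, linear, each with its own range) of the 10 genes in WT, vehicle-treated and Igfbp2-treated *Ncf1*-/- libraries, with a point per library, the mean as a line and the SD as a bar (n = 4). *Igfbp2*, *Igfbp3*, *Igfbp4* and *Igf1* step up from group to group, *Igfbp5* and *Igf1r* are lowest with vehicle, and WT replicate 3 stands apart for *Igf2*.

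*Igfbp2*, the gene of the protein that was added, was the most abundant binding-protein mRNA of the *Ncf1*-/- cultures. Its WT libraries had 28.9, 27.4, 228 and 108 CPM, the vehicle-treated *Ncf1*-/- libraries 678, 660, 768 and 636 CPM and the Igfbp2-treated ones 1278, 1030, 1016 and 1076 CPM. No group overlapped another on this scale. The WT libraries differed among themselves by up to 8.34-fold, against 1.21-fold and 1.26-fold within the other groups. *Igfbp2* mRNA was higher in vehicle-treated cultures than in WT by 2.80 on the log2 scale (SE 0.54, adjusted p = 0.000637), with means of 685 ± 57.6 and 98.1 ± 94.5 CPM (SD, n = 4). Adding Igfbp2 protein went with a further difference of 0.68 (SE 0.51), which was not called (adjusted p = 0.338) in the fit that shares its spread with WT. In a fit of the 8 *Ncf1*-/- libraries alone it was 0.63 (adjusted p = 0.000334). Of 22 settings tried, 3 called the treatment difference, and its lowest value was 0.19. Treated cultures were above WT by 3.48 (SE 0.56, adjusted p = 0.000135).

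*Igfbp2* (chr1:72824503-72852474, plus strand) and *Igfbp5* (chr1:72857932-72874884, minus strand) are neighbours that run towards each other with 5457 bases between their ends, yet their mRNAs differed in opposite directions between the genotypes. The windows around their start sites are shown for that reason, beside that of *Igfbp4*, the member with the largest fold change. Each is the RefSeq promoter window of 250 bases before and 50 bases after the start (GRCm38.p6), and all 10 members matched a window. Capitals mark the 3 motifs that were searched on both strands: the GC box GGGCGG, the E-box CACGTG and the TATA box TATAAA, none of which overlap here.
Igfbp2, chr1:72824230-72824529, plus strand: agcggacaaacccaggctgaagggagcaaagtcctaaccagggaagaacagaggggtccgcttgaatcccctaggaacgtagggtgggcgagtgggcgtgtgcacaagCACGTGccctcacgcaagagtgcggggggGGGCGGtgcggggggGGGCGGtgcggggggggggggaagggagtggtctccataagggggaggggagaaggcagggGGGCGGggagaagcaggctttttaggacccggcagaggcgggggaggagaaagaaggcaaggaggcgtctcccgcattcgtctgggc
Igfbp5, chr1:72874816-72875115, minus strand: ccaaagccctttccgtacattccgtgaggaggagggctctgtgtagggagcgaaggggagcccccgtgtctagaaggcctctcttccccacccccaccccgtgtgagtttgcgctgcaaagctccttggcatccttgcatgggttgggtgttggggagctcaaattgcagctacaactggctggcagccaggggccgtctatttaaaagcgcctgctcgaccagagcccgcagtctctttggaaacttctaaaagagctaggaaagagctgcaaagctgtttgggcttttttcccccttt
Igfbp4, chr11:99040994-99041293, plus strand: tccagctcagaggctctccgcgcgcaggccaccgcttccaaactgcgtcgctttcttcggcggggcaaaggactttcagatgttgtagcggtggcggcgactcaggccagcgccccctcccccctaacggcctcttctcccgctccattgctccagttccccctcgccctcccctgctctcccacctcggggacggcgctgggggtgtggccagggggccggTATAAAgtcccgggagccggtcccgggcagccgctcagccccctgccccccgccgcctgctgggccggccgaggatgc
The *Igfbp2* window shown, the first of 2 that RefSeq gives, held 3 GC boxes and 1 E-box, the *Igfbp4* window 1 TATA box and the *Igfbp5* window none of the motifs. Of all 32851 windows, 35.7% held a GC box, 7.15% an E-box and 13.6% a TATA box. CG dinucleotides numbered 18, 27 and 10 in the *Igfbp2*, *Igfbp4* and *Igfbp5* windows, against a median of 7 over all windows. The second *Igfbp2* window (chr1:72825137-72825436) held none of the motifs and 14 CG dinucleotides. These are matches of letters, and no binding was measured.

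*Igfbp4* (chr11:99041244-99054392, plus strand), an IGF-binding protein that holds ligand back from its receptor until a protease cuts it, had 7.60, 6.64, 22.4 and 24.8 CPM in WT, 152, 168, 175 and 178 CPM with vehicle and 275, 251, 266 and 233 CPM with Igfbp2. The groups were far apart and none overlapped on this scale. Its genotype difference of 3.45 (SE 0.36, adjusted p = 4.05e-06) was the largest of the family, a 10.9-fold ratio. The treatment difference of 0.61 (SE 0.32, adjusted p = 0.18) was not called, and in the *Ncf1*-/- libraries alone it was 0.56 (adjusted p = 0.000168). Of 22 settings tried, 3 called the treatment difference, and its lowest value was 0.15.

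*Igfbp3* (chr11:7206086-7213923, minus strand), the main carrier of IGF in blood, had 105, 109, 41.7 and 45.5 CPM in WT, 181, 213, 237 and 297 CPM with vehicle and 462, 412, 646 and 312 CPM with Igfbp2. It was the only one of the 4 genes higher in *Ncf1*-/- whose WT replicates 3 and 4 were the lower ones. The groups did not overlap on this scale. Without TMM factors, vehicle-treated replicate 4 (333 CPM) was above treated replicate 4 (279 CPM). *Igfbp3* was above WT in vehicle-treated cultures by 1.63 (SE 0.32, adjusted p = 0.000776). It rose with Igfbp2 by 0.98 (SE 0.32, adjusted p = 0.0383), but that call was lost when any of vehicle-treated replicates 1 to 3 or treated replicates 1 to 3 was left out, with adjusted p-values of 0.0763 to 0.139.

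*Igfbp5*, which binds IGF at the cell surface and in the matrix, went the other way between the genotypes. It had 350, 439, 240 and 644 CPM in WT, 187, 199.5, 254 and 262 CPM with vehicle and 505, 528, 504 and 754 CPM with Igfbp2. The vehicle-treated libraries were lowest as a group, with WT replicate 3 among them, and the treated libraries lay above all of them. *Igfbp5* was lower in *Ncf1*-/- than in WT NSCs by −0.89 (SE 0.25, adjusted p = 0.00809) and rose with Igfbp2 by 1.34 (SE 0.25, adjusted p = 0.00332), a ratio of 2.54. Treated *Ncf1*-/- and WT NSCs differed by 0.45 (SE 0.25, adjusted p = 0.127), which passed the threshold without WT replicate 4 (0.665, adjusted p = 0.0181).

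*Igfbp7* (chr5:77349240-77408041, minus strand), which binds IGF weakly, was near the detection limit with 5 to 28 counts per library. It had 0.77, 1.24, 0.75 and 0.50 CPM in WT, 0.65, 0.34, 0.40 and 0.19 CPM with vehicle and 1.495, 0.78, 0.91 and 1.38 CPM with Igfbp2. Vehicle-treated libraries were low and just overlapped WT. Its genotype difference of −1.05 (SE 0.39, adjusted p = 0.0346) was lost without WT replicate 1 or 2 or vehicle-treated replicate 2, 3 or 4 (adjusted p = 0.0518 to 0.103), while the treatment difference was 1.54 (SE 0.38, adjusted p = 0.013). *Igfbp6* (chr15:102144362-102149511, plus strand), a binding protein with a preference for IGF-2, had 2, 3, 3 and 7 counts in WT, 5, 3, 1 and 0 with vehicle and 11, 3, 8 and 10 with Igfbp2. No difference could be tested at this depth. An exon of *Igfbp7* overlaps *Polr2b* on the other strand, with the same limit as for *Igf2*.

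Because the members differ in length, levels were compared between genes as CPM per kilobase of effective length. In the *Ncf1*-/- cultures the order was *Igfbp2*, *Igfbp3*, *Igfbp4*, *Igfbp5*, then the receptors, then the ligands with *Igfbp7* and last *Igfbp6*. With vehicle, *Igfbp2* was at 609 ± 48.4, *Igfbp3* at 107 ± 22.5, *Igfbp4* at 88.7 ± 4.92 and *Igfbp5* at 38.9 ± 6.65 CPM per kilobase (SD, n = 4), and *Igfbp3* and *Igfbp4* overlapped. In WT, *Igfbp2* at 86.8 ± 83.4, *Igfbp5* at 71.8 ± 29.4 and *Igfbp3* at 34.7 ± 16.9 CPM per kilobase overlapped as neighbours in the order, and *Igfbp4* at 7.91 ± 4.98 was below *Igf1r* at 12.5 ± 1.10. The 6 binding-protein genes together summed to 139 to 275 CPM per kilobase in WT, 797 to 925 in vehicle-treated and 1318 to 1573 in treated libraries.

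The make-up of that sum was even in the *Ncf1*-/- libraries and uneven in WT. *Igfbp2* made up 67.5% to 75.2% of it with vehicle and 62.8% to 71.5% with Igfbp2, and in WT between 15.8% and 73.4%. *Igfbp5* made up 15.0% to 48.7% in WT, 4.03% to 5.36% with vehicle and 5.54% to 9.61% with Igfbp2. WT replicates 1, 2 and 4 thus held more *Igfbp5* than *Igfbp2* per length, with *Igfbp2* at 0.427, 0.325 and 0.863 times *Igfbp5*, and WT replicate 3 held 4.90 times as much *Igfbp2*. In the vehicle-treated libraries that ratio was 12.6 to 18.7 and in the treated ones 7.33 to 12.9, which overlap. Shares within a library do not depend on how libraries are scaled to each other.

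**Figure D3:**
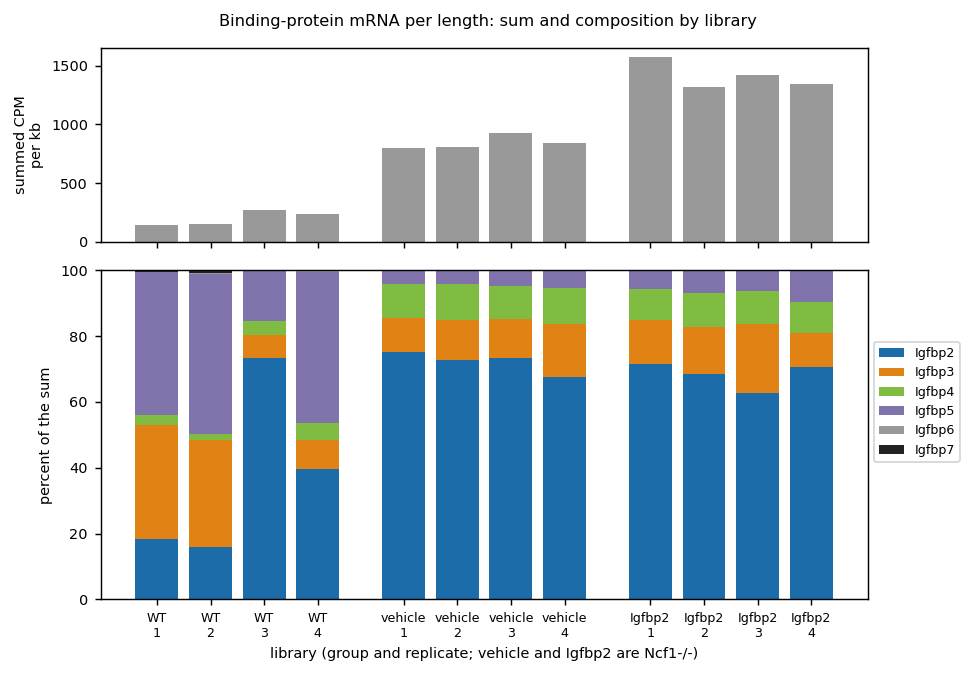
Upper panel, CPM per kilobase of effective length summed over 6 binding-protein genes (y axis) in each of the 12 libraries. Lower panel, percent of that sum per gene. *Igfbp2* takes 62.8% to 75.2% in each *Ncf1*-/- library. WT replicate 3 has a like *Igfbp2* share of 73.4%, with more *Igfbp5* (15.0%) and less *Igfbp3* (6.97%) and *Igfbp4* (4.29%) than any *Ncf1*-/- library.

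WT replicates 3 and 4 differed from WT replicates 1 and 2 in marker genes as well as in IGF genes. *Vim*, a filament gene of stem cells and glia, had 626, 664, 4570 and 1530 CPM in the WT libraries and 3840 to 4310 CPM in the *Ncf1*-/- libraries. Of the 8 neural stem markers, 2 were called higher and 5 lower in vehicle-treated cultures than in WT. *Vim* itself was not called (adjusted p = 0.0636). *Mbp*, a myelin gene of oligodendrocytes, had 3690, 3890, 327 and 1890 CPM in WT and 2.37 to 10.2 CPM in the *Ncf1*-/- libraries. Over the oligodendrocyte list of 10 genes, all tested, 8 were lower and 2 higher in vehicle-treated cultures than in WT, with sums of 3210 to 11300 CPM in WT, 2180 to 2340 CPM with vehicle and 2230 to 2320 CPM with Igfbp2. The astrocyte list of 6 genes, 5 of them tested, summed to 5370 to 10500 CPM in WT, 1970 to 2420 CPM with vehicle and 2180 to 3030 CPM with Igfbp2. Among the WT libraries *Igfbp2*, *Igf2* and *Igf2r* followed the order of *Vim* in replicates 3 and 4 and *Igfbp3* the opposite one. The part of these cell states in the genotype differences was not tested. Without WT replicates 3 and 4, which was chosen after seeing the data, the genotype difference was 4.56 for *Igfbp2* (adjusted p = 1.01e-11), 4.51 for *Igfbp4* (adjusted p = 2.48e-12), 1.07 for *Igfbp3* (adjusted p = 0.00169) and 2.43 for *Igf2* (adjusted p = 0.000137).

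**Figure D4:**
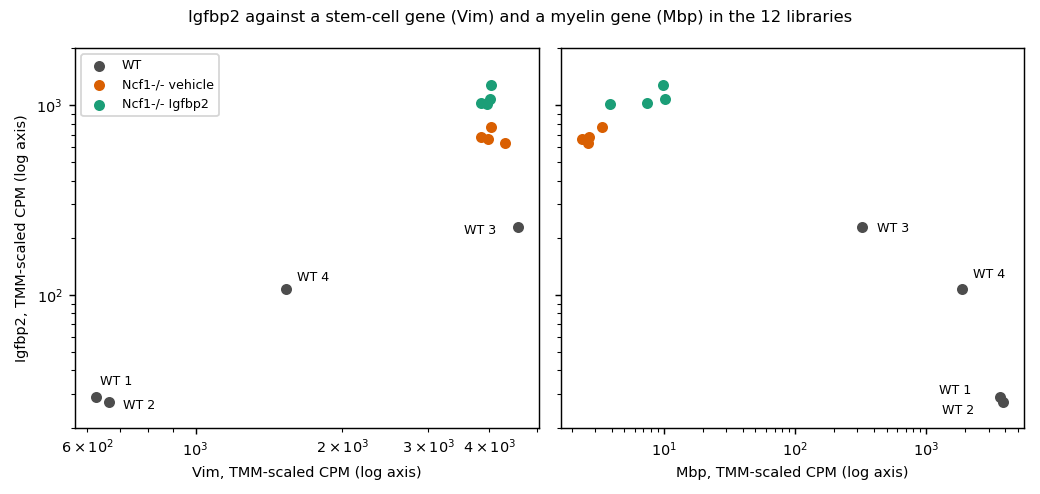
*Igfbp2* (y axis) against *Vim* (left) and *Mbp* (right) in TMM-scaled CPM on log axes, with a point per library. The WT libraries spread from 27.4 to 228 CPM of *Igfbp2*. WT 3 lies above every *Ncf1*-/- library in *Vim* and below every one in *Igfbp2*. The *Ncf1*-/- libraries form 2 groups that are apart in *Igfbp2* and overlap in *Vim*.

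The size of the treatment differences depended on how the libraries were scaled, since TMM factors were 1.08 to 1.14 in vehicle-treated and 0.89 to 0.98 in Igfbp2-treated libraries. The median log2 fold change of all genes was 0.04 with TMM factors, −0.23 with library totals alone and −0.30 in log2(TPM + 1), where TPM is the deposited value per transcript length. The log2 fold changes of the 9 members were 0.34 to 1.27 with library totals and 0.15 to 0.84 in log2(TPM + 1), each above the median of its scale. The number called fell from 5 to 3 with library totals (*Igfbp5*, *Igfbp7* and *Igf1r*) and to 2 with log2(TPM + 1) (*Igfbp5* and *Igfbp7*). Of all genes tested, 37.6% were called with library totals and 4.13% were called higher, and in log2(TPM + 1) these shares were 40.5% and 1.27%. The number of the 10 members with every treated above every vehicle-treated library was 9 with TMM factors, 5 with library totals and 2 with TPM, where the shares of all genes tested were 19.3%, 6.59% and 1.74%. In TPM these 2 were *Igfbp5* and *Igfbp7*. *Igfbp2* overlapped there, at 428.0 to 578.5 TPM in treated and 404.9 to 491.4 TPM in vehicle-treated libraries. A few short structural RNAs made up 56.0% to 60.3% of TPM in vehicle-treated and 62.1% to 72.3% in treated libraries. The WT libraries also widened the spread used for the treatment test, with a biological coefficient of variation of 0.25 in WT, 0.118 in vehicle-treated and 0.122 in treated libraries. In a fit of the *Ncf1*-/- libraries alone all 9 members were called higher, where 37.8% of all genes were called and 19.5% were called higher. With the replicate number as a block all 9 were likewise called higher, where 36.0% of all genes were called in either direction. In both fits the lowest difference was 0.56 (*Igfbp4*). The block, which uses the animal numbers stated by the study although the sex-linked RNA goes against them, gave 0.63 for *Igfbp2* (adjusted p = 0.00198), 0.91 for *Igf1* (adjusted p = 0.0372) and 1.18 for *Igf2* (adjusted p = 0.00545).

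**Figure D5:**
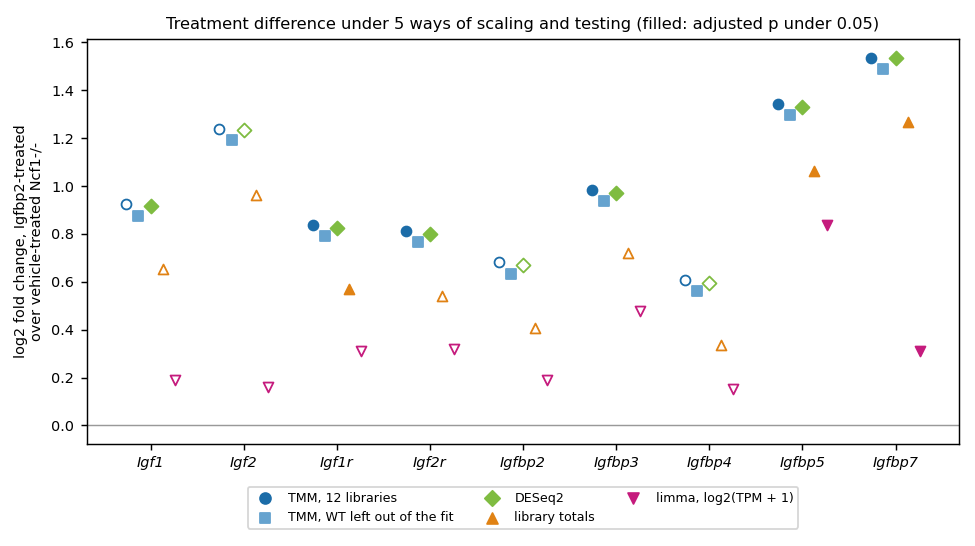
Log2 fold change of Igfbp2-treated over vehicle-treated *Ncf1*-/- NSCs (y axis) for the 9 genes tested (x axis) under 5 ways of scaling and testing, filled where the adjusted p-value was under 0.05. All values lie above 0, and *Igfbp5* and *Igfbp7* are filled under all 5.

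Other genes of the pathway were described from a list of 40, of which 32 could be tested. Between the genotypes 10 were higher and 11 lower in *Ncf1*-/- NSCs, with a median of 0.22, beside 57.2% of all genes called, 28.9% higher and 28.2% lower. With Igfbp2 treatment 17 rose and none fell, with a median of 0.49, beside 25.0% of all genes called, 14.2% higher and 10.7% lower. The insulin receptor gene *Insr* and the receptor substrates *Irs1* and *Irs2*, which pass the signal to PI3K, were, like *Igf1r*, lower in *Ncf1*-/- NSCs and higher with treatment. *Irs2* had means of 119 ± 32.7 CPM in WT, 64.6 ± 3.10 with vehicle and 152 ± 7.46 with Igfbp2 (SD, n = 4), a difference of −0.88 between the genotypes (adjusted p = 0.000177) and of 1.24 with treatment (adjusted p = 0.000496). *Insr* differed by −0.42 (adjusted p = 0.0187) and 0.75 (adjusted p = 0.00291), and *Irs1* by −0.58 (adjusted p = 0.0032) and 0.44 (adjusted p = 0.038). *Grb10*, an adaptor that restrains the insulin and IGF receptors, rose in both comparisons, by 1.503 (adjusted p = 1.51e-06) and 0.565 (adjusted p = 0.00862).

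The largest called genotype differences of the list were those of *Cd93* at 5.28 and of the protease genes *Adam12* at 2.02 and *Adamts1* at 1.60. On the lower side they were those of the endocytic receptor *Lrp1* at −2.13, *Irs4* at −1.68 and *Igfbpl1* at −0.99. *Irs4* was near the detection limit, with means of 0.77 CPM in WT and 0.23 CPM with vehicle. *Cd93*, a membrane glycoprotein reported to bind Igfbp7, had 1.27 ± 1.22 CPM in WT, 55.5 ± 19.2 with vehicle and 208 ± 51.7 with Igfbp2 (SD, n = 4). It also had the largest rise with treatment at 1.90 (adjusted p = 0.00369), before *Stc2* at 1.65 (adjusted p = 0.0315) and *Stc1* at 1.37 (adjusted p = 0.0444), the stanniocalcins that inhibit a protease of Igfbp4. The imprinted *H19*, which lies 72622 bases from *Igf2*, was at 89.4 ± 115 CPM in WT, 44.05 ± 9.20 with vehicle and 105.5 ± 23.2 with Igfbp2, and was called in neither comparison (adjusted p = 0.346 and 0.32).

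Likeness of pattern was taken as the root-mean-square difference between genes over the 12 libraries, on log2 CPM centred per gene, among the 11172 genes whose mean reached 5 CPM. Among the genes nearest to *Igfbp2* were *Upp1* (0.233), *Cp* (0.245), *Rab3b* (0.299) and *Tmem176a* (0.343), of which *Cp* encodes the copper protein ceruloplasmin. *Upp1* had means of 2.99, 28.6 and 42.0 CPM and *Cp* of 9.99, 79.2 and 113 CPM in WT, vehicle-treated and treated libraries. Nearest to *Igfbp3* were *Zcchc12* (0.335) and *BC030867* (0.391), to *Igfbp4* *3930402G23Rik* (0.277) and *Col18a1* (0.289), and to *Igfbp5* the lipoprotein receptor genes *Vldlr* (0.199) and *Lrp5* (0.259). *Kdm5c* (0.113) and *Hdac4* (0.113) were nearest to *Igf1r*, and *Dchs1* (0.0986) and *Myh9* (0.123) to *Igf2r*. Among the members themselves, *Igfbp2* and *Igfbp4* were closest (0.374), followed by *Igfbp5* and *Igf1r* (0.398), and *Igfbp2* was far from its neighbour *Igfbp5* (2.04).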

How the data were processed

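Total RNA of 12 NSC cultures, depleted of ribosomal RNA, was sequenced. Per the labels, the authors used Bowtie2 and RSEM with the build GRCm38. Versions, annotation release and strand setting are not given in the sources used here. The authors deposited expected counts, TPM and FPKM per gene, as the file headers name them. The FPKM were not used. The authors' merged table holds a score that equals TPM times the number of transcripts for 257083 of 257083 values, and served to match symbols to gene identifiers. The effective length that RSEM deposited per gene gave levels per kilobase.

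The 10 members and all gene lists were chosen with earlier results of these data known. Of the expected counts, 15.9% were not whole and were rounded. The filterByExpr step with the 3 groups left 15706 genes and 99.9% of counts. edgeR 4.0.16 (limma 3.58.1, R 4.3.3) was fitted with a mean per group over the 12 libraries, with TMM factors and 2-sided quasi-likelihood tests. Standard errors were taken as the absolute log2 fold change divided by the square root of the quasi-likelihood F statistic. Over the genes tested, they had a median of 0.14 in each comparison. The code was tested on simulated data. Alternatives were library totals, DESeq2 1.42.0, no filter, a minimum mean of 5 CPM, the 2 compared groups alone, limma on log2(TPM + 1) and log2(TPM + 0.1), ANOVA with Tukey's test on TPM as in the study, an adjusted p-value under 0.01, libraries matched for Y-linked expression, the replicate block and each library left out. All 10 members are named. Of the pathway list, the 3 largest called rises and falls in each of the first 2 comparisons and *Insr*, *Irs1*, *Irs2*, *Grb10* and *H19* are named. Likeness used log2(CPM + 0.5), and 1 gene that its rule names is not reported here.

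Replicate numbers follow the order of the labels. The methods and sample sheet of the study pair treated and untreated *Ncf1*-/- cultures of the same number by animal, and the block uses that stated pairing. With group means removed, same-numbered cultures correlated at −0.0586 to 0.0156, against −0.213 to 0.219 for other numbers, and Y-linked expression also goes against the pairs. Replicates differed by more than sampling noise in every pair (lowest chi-square per degree of freedom 4.63). Positions are those of GENCODE release M21 (GRCm38), and promoter windows are from RefSeq (GRCm38.p6).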

Additional observations from a re-analysis of the deposited data

Results flagged for a closer look

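Of 30 groups of 4 values (10 genes in 3 groups) tested for an outlying library by Dixon's test, 2 were marked, where chance marks about 1 in 20 groups. *Igfbp5* was at 754 CPM in Igfbp2-treated *Ncf1*-/- replicate 4, with the next library at 528 CPM and a gap of 0.905 of the group's range. *Igf1* was at 0.459 CPM (16 counts) in WT replicate 3, with the next WT library at 0.136 CPM (3 counts) and a gap of 0.919 of the range.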

How the results depend on the processing

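The number of members called with treatment was 5 and moved to 3 with library totals, with a minimum mean of 5 CPM and at an adjusted p-value under 0.01, to 2 with limma on either log2 TPM scale, to 0 with ANOVA and Tukey's test on TPM (1 at an unadjusted p-value under 0.05), and to 9 in the *Ncf1*-/- libraries alone, with the replicate block and without WT replicates 3 and 4. Leaving out 1 library gave 4 to 7 with treatment, 6 to 8 between the genotypes and 5 to 6 between treated *Ncf1*-/- and WT NSCs. ANOVA and Tukey's test gave 2 members between the genotypes instead of 7 and 3 between treated *Ncf1*-/- and WT instead of 5. For the pathway list, the 17 called with treatment moved to 9 with library totals, 11 with a minimum mean of 5 CPM, 6 and 5 with log2(TPM + 1) and log2(TPM + 0.1), 7 at an adjusted p-value under 0.01 and 0 with Tukey's test (6 at an unadjusted p-value under 0.05), which also gave 4 instead of 21 between the genotypes and 10 instead of 24 between treated *Ncf1*-/- and WT. Matching on Y-linked expression (not on *Xist*), which left WT replicate 4 alone against the treated libraries, gave 15 instead of 24, with the lone library assumed to vary like the others. *Igf2* between the genotypes was −0.07 and ran from −0.41 (without WT replicate 2) to 1.57 (without WT replicate 3) when 1 library was left out, and was 2.43 without WT replicates 3 and 4. The cause of these moves was not tested, apart from the smaller number of genes or libraries where the alternative itself sets it. Of the differences named per gene, 543 values under alternatives kept direction and side of the threshold, 21 passed it newly, 37 lost it and 2 turned. The replicate block follows the pairing the study states, which the sex-linked RNA goes against, and it took away no call of a member. Low counts limit *Igf1*, *Igf2*, *Igfbp6* and *Igfbp7*. The SEs and p-values rest on the spread between these cultures and treat them as independent. Because the sex-linked RNA of the vehicle-treated libraries goes against 1 pup per culture, whether the 4 cultures of a group are independent is not known.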
